A study of Drosophila melanogaster with 16 samples.

Results

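The comparison is between larvae of the α-amanitin-resistant *Drosophila melanogaster* stock Ama-KTT/M/2 that grew up on food with α-amanitin and larvae of the same stock on non-toxic food. Pools were chosen by their titles alone, which gave 6 pools with the toxin and 5 without it, so 11 of the 16 samples of the series. The other 5 samples are Canton-S, a wild-type stock sensitive to the toxin, on non-toxic food. They entered the model for its estimate of spread, and their values are given beside some genes. Both Ama-KTT/M/2 groups share 1 genotype, in which chromosomes 2 and 3 are isogenic, and larvae of the toxin group were exposed from hatching onwards. The dose, 1.5 per g of food, is in mg by the labels but in μg throughout the methods, which also place it just below this stock's median lethal concentration, so μg is taken as its unit. Each sample was RNA from 10 whole larvae late in the last instar that were still feeding, read on 1 Affymetrix Drosophila Genome array. Of 18952 probe sets, 183 were controls and the remaining 18769 were tested.

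The design sets limits on what the pools can show. Larvae were drawn at random from all tubes of a group on a single morning, so the pools are not separate cultures, and the p-values reflect only how far pools of larvae varied. Growth was slower with the toxin and tubes were started on several days, so neither the age nor the exact stage of the larvae in a pool is known, and toxin and stage cannot be told apart. Their sex was not recorded. In RNA from whole larvae, fewer cells of a type and less RNA per cell cannot be told apart either.

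α-Amanitin is a mushroom toxin that binds RNA polymerase II and slows transcription of messenger RNA. The last larval instar of *Drosophila* runs through a set order of programmes driven by pulses of the steroid hormone ecdysone: after the early part of the instar, the fat body fills the blood with larval serum proteins, and the salivary glands then make the glue that later fixes the pupa to its support. Meanwhile the gut digests food inside the peritrophic matrix, a sleeve of chitin and chitin-binding proteins, and the epidermis lays down cuticle proteins that change within each instar.

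Across all named genes, each represented by its brightest probe set, 277 of 11983 were higher with the toxin (2.31%) and 182 were lower (1.52%), at an adjusted p under 0.05 in limma and a change of at least 2-fold. Without α-amanitin replicate 2 the shares were 2.69% and 1.80%, and without it and non-toxic replicate 5 they were 2.98% and 2.14%. Without the fold limit, 21.0% and 19.6% of genes passed. The median log2 fold change of all genes was 0.02, the background for the list medians given here. The deposited values were already quantile normalized, so a similar overall signal was imposed on the arrays. Median intensities were 62.4 to 72.9 array units over all 16 samples, and log2 values of pools of 1 group correlated at r of 0.973 to 0.996. An intensity under 16 is read here as not measured and was given no order in checks of overlap. A fold against a group mean under 16 is given as a lower bound. The fits used all values, also those under 16, after 16 was added to each.

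One of the 6 toxin pools, replicate 2, stood apart from the other 5 for part of the genes. For each probe set called, its difference from the non-toxic mean was expressed as a percentage of the mean difference of the other 5 toxin pools, on the log2 scale. Among the 344 probe sets that were higher (1.83% of those tested), the median of this percentage was 52.6% in replicate 2, against medians of 93.4% to 130.5% in the other toxin pools. In 65 of the 344, replicate 2 held under 25% of the shift, and in 102 it held 75% or more. Among the 208 that were lower (1.11%), its median was 79.6%, and only 5 lay under 25%. The calls themselves changed less. With replicate 2 left out, 403 probe sets were higher (2.15%) and 241 lower (1.28%), 334 and 200 of them also called with it. With non-toxic replicate 5 left out as well, 440 were higher (2.34%) and 287 lower (1.53%). Groups did not overlap in 250 of the 344 higher probe sets (against 9.26% of all probe sets) and in 179 of the 208 lower ones (11.3% of all). Leaving replicate 2 out raised these to 313 and 186.

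**Figure D1:**
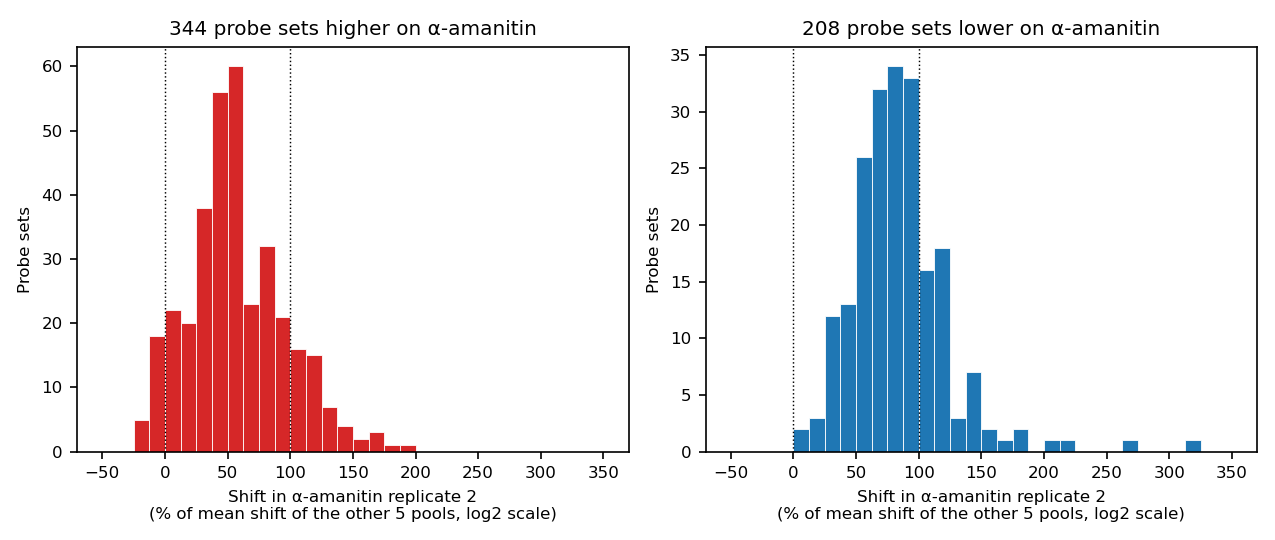
Position of α-amanitin replicate 2 among the toxin pools. The x axis gives its shift from the non-toxic mean as a percentage of the mean shift of the other 5 toxin pools (log2 scale), and the y axis counts probe sets called higher (left, 344) or lower (right, 208). The dotted lines mark 0 (at the non-toxic mean) and 100% (at the other toxin pools). The higher probe sets spread from about 0 to past 100% with a median of 52.6%, and the lower ones centre near 79.6%.

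The salivary gland glue genes set replicate 2 apart from the other toxin pools. All 8 measured genes of this list were called higher, with a median log2 fold change of 6.79, or 8.16 without replicate 2. *Sgs3*, which encodes a main glue protein, read 11044, 9484, 12805, 10404 and 12348 in replicates 1 and 3 to 6 with the toxin, and under 16 in replicate 2 and in all 5 non-toxic pools. Its mean with the toxin was at least 584-fold higher (adjusted p = 7.43e-04). Thus 5 toxin pools had a high *Sgs3* signal, and the remaining one could not be told from the non-toxic pools. *Sgs7*, another glue gene, behaved likewise, with 9647 to 12755 in those 5 pools and less than 16 elsewhere (at least 581-fold, adjusted p = 3.26e-04). *Sgs5* and *Sgs8* were between 3636 and 9492 in the same 5 pools, and *Sgs1*, *Sgs5bis* and *Eig71Ee*, a glue-gland gene induced by ecdysone, were between 1311 and 7055.

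*Sgs4*, which lies on the X chromosome, split the toxin pools further. It read 3441, 4967 and 7096 in replicates 3, 4 and 6, but 87.6 in replicate 5, 18.7 in replicate 1 and under 16 in replicate 2. Replicates 1 and 5 therefore lacked most of the *Sgs4* signal while their other glue genes were at 1458 or more. Its call (at least 163-fold, adjusted p = 0.0224) was lost when replicate 3, 4 or 6 was left out, and its log2 fold change of 4.66 ranged from 3.86 to 5.59 over the fits without a single pool. The summed intensity of the 8 glue genes ranged from 11.7 to 63707 over the toxin pools and from 6.65 to 14.5 over the non-toxic pools. In Canton-S pools, also on non-toxic food, the sums were 1799 to 30817, above those of every non-toxic Ama-KTT/M/2 pool. An exact Wilcoxon rank-sum test over pools with the same adjustment called 4 of the 8. In all 8, toxin replicate 2 and every non-toxic Ama-KTT/M/2 pool read under 16. That test ranked those values although they count as not measured, so it cannot tell the 8 genes apart.

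**Figure D2:**
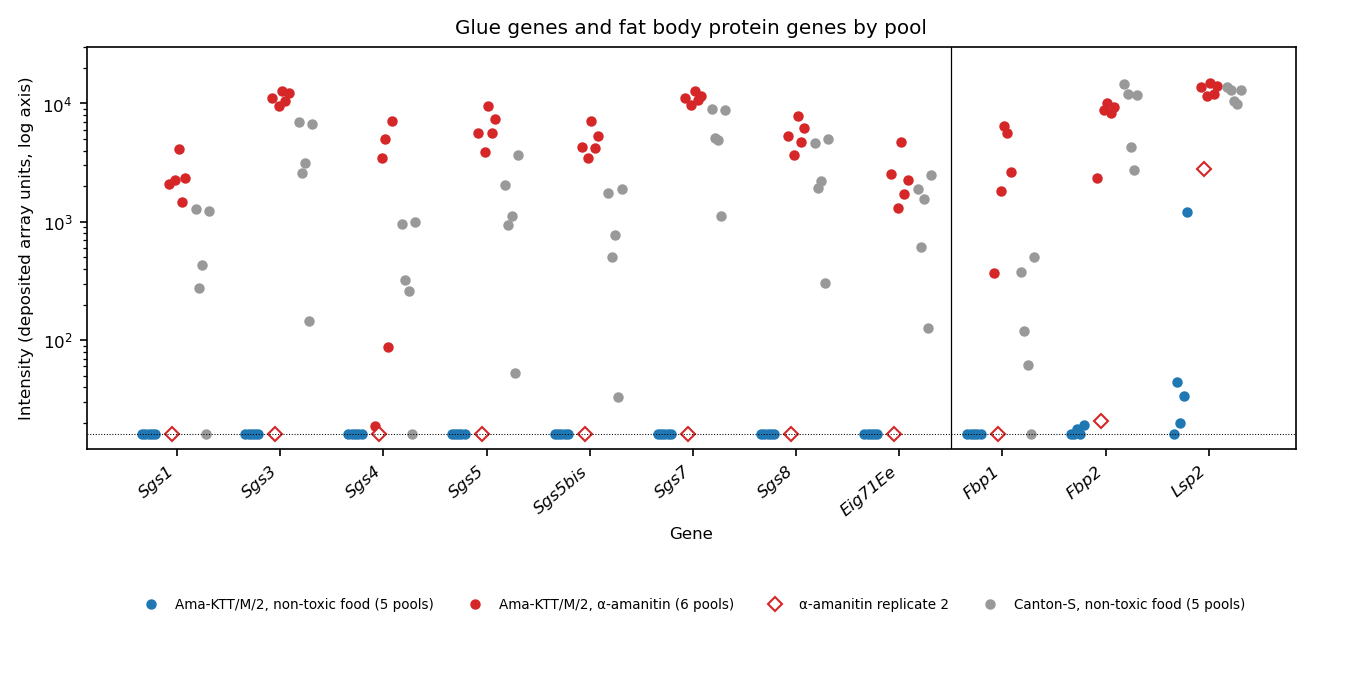
Intensities of 8 glue genes (left of the line) and 3 fat body protein genes (right) in every pool, on a log axis with values under 16 drawn at 16 (dotted line). Blue points are the 5 non-toxic Ama-KTT/M/2 pools, red points the 6 α-amanitin pools, with replicate 2 as an open diamond, and grey points the 5 Canton-S pools. Replicate 2 lies at the floor with the non-toxic pools for all 8 glue genes and for *Fbp1*, and between the groups for *Lsp2*.

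Genes that prepare the salivary gland moved less. The new glue genes, which are active before the glue proper, were not called in either direction (0 of 4, median log2 fold change -0.61). *ng2* read 794 to 1867 in the 5 toxin pools other than replicate 2, 2801 in replicate 2 and 2367 to 2866 without the toxin (adjusted p = 0.0343, below 2-fold), while *ng3* ranged from 4873 to 8846 with the toxin and from 5711 to 8146 without it. *ng4* was high in non-toxic replicates 1 and 2 only, at 515 and 1250, against 74.6 to 105 in the other 3 non-toxic pools and 65.5 to 97.4 with the toxin. Of the 6 measured salivary regulators, *sage* and *sens* were higher (33.3%, against 2.31% of all genes). *sage*, a transcription factor of the salivary gland, read 437, 96.5, 226, 711, 237 and 347 with the toxin and 49.3 to 65.1 without it (4.26-fold, adjusted p = 6.46e-04). Replicate 2 was the lowest toxin pool there, but above every non-toxic pool. *sens*, a zinc-finger factor, was at 35.2 to 81.9 against under 16 (at least 3.70-fold).

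Genes of larval serum and fat body proteins followed a similar course with more variation between pools. The 3 of 6 list members that the annotation names on this array were all higher (median log2 fold change 6.74, and 7.45 without replicate 2). *Fbp1*, the receptor through which the fat body takes serum proteins back up, was at 368, 1814, 6474, 5665 and 2630 in the toxin pools other than replicate 2, where it was under 16, as in all non-toxic pools (at least 177-fold, adjusted p = 0.00169). *Fbp2*, a fat body protein of the same stage, read 2364 to 10175 in those 5 pools and 20.9 in replicate 2, against at most 19.4 without the toxin. *Lsp2*, a larval serum protein, was an exception: replicate 2 reached 2774, below the 11485 to 14926 of the other toxin pools. Among the non-toxic pools, replicate 5 stood out at 1202 against at most 44.1 in the other 4. The *Lsp2* groups did not overlap (135-fold, adjusted p = 6.31e-06), and the log2 fold change of 7.08 became 8.08 without non-toxic replicate 5. *Obp99b*, an odorant-binding protein family member, showed the same order of pools, with 2782 in toxin replicate 2, 11302 to 13283 in the other toxin pools, 1987 in non-toxic replicate 5 and 53.9 to 368 in the other non-toxic pools. Its log2 fold change was 4.94, or 5.61 without non-toxic replicate 5. Without toxin replicate 2, that of *Fbp1* rose from 5.99 to 7.18 and that of *Fbp2* from 6.74 to 8.01. Canton-S pools on plain food read 9962 to 13804 for *Lsp2*, 2764 to 14596 for *Fbp2* and 12037 to 13775 for *Obp99b*. These were above every non-toxic Ama-KTT/M/2 pool. *Fbp1* ranged there from under 16 to 505. None of the 19 genes of fat storage and fatty acid synthesis passed the 2-fold limit (median 0.02). *FASN1*, the main fatty acid synthase, read 10750 to 12402 with the toxin and 13342 to 13719 without it. *FASN3*, a further fatty acid synthase outside that list, was at 262 to 1315 against 26.6 to 96.5 (11.4-fold, adjusted p = 8.555e-06).

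In the list of the ecdysone receptor and early response genes, 4 of 22 were higher (18.2%, against 2.31% of all genes) and 0 lower, with a median log2 fold change of 0.02. Those 4 were *EcR*, the ecdysone receptor, *br* (Broad), a transcription factor that specifies the pupal programme, *Sox14*, an ecdysone-induced factor, and *vri*, a clock-linked bZIP factor. *vri* read 340, 106, 251, 602, 271 and 291 with the toxin, against 34.9 to 65.4 (4.11-fold, adjusted p = 2.99e-04). The *br* probe set was at 581, 322, 741, 1075, 667 and 822, and at 142 to 423 without the toxin, so replicate 2 overlapped with the non-toxic pools. The gene has 5 probe sets, with log2 fold changes from -0.05 to 1.92. *EcR* sat at the limit of 2.00-fold and its call was lost in 6 of the 11 fits that left out a single pool. In all 4 genes replicate 2 held 26.1% to 33.6% of the shift of the other toxin pools. Genes for ecdysone synthesis in the prothoracic gland were higher in 2 of 13 (15.4%, against 2.31% of all genes). *sro* (shroud) read 163, 45.9, 125, 293, 127 and 184 against at most 33.6 (4.62-fold, adjusted p = 5.49e-05), and *spok* (spookier) 171 to 309 against 69.2 to 111 (2.46-fold). None of 8 late puparial *Eig71E* genes and none of 7 juvenile hormone genes passed the limits, with medians of -0.01 and 0.01.

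Cuticle protein genes went both ways. Of 81 measured genes with the Rebers-Riddiford chitin-binding motif, 6 were higher (7.41%, against 2.31% of all genes) and 15 lower (18.5%, against 1.52%). The median was -0.28. The higher ones included *Cpr78E*, which read 1577, 28.8, 892, 3982, 1354 and 1344 with the toxin and at most 23.8 without it (25.5-fold, adjusted p = 8.265e-04, and 46.3-fold without replicate 2). *Cpr65Aw* was at 464 to 1416 in the toxin pools other than replicate 2, which at 170 lay within the non-toxic range of 94.4 to 180. *Cpr49Ac* repeated this, with replicate 2 at 511, the other toxin pools at 1117 to 3115 and the non-toxic pools at 128 to 850. For all 3, replicate 2 was the lowest toxin pool.

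Among the lower cuticle genes both groups were spread. *Cpr65Ec* was at 619 and 493 in non-toxic replicates 1 and 2 and at 206 to 280 in replicates 3 to 5, against 67.2 to 128 in 5 toxin pools and under 16 in toxin replicate 4 (4.25-fold, adjusted p = 0.00342). *Lcp65Af*, a larval cuticle protein gene, followed this order, with 6514 and 6694 in non-toxic replicates 1 and 2, 2742 to 3417 in the other 3, 1139 to 2467 in 5 toxin pools and 110 in toxin replicate 4 (3.72-fold, adjusted p = 0.0344). Its call was lost without toxin replicate 5 or non-toxic replicate 1 or 2, and its log2 fold change of -1.90 was -1.26 without toxin replicate 4. *Cpr56F* was at 709 and 1043 in the same non-toxic pair, 304 to 334 in the rest, and 72.7 to 188 with the toxin. Non-toxic replicates 1 and 2 were thus the highest pools and toxin replicate 4 the lowest for each of them. *Cpr64Ad* had the largest fitted fall of the 15 (8.28-fold, adjusted p = 0.0448), but its groups overlapped and the call was lost in 6 of the 11 fits without a single pool, among them those without toxin replicate 2 (adjusted p = 0.0898) and non-toxic replicate 2 (log2 fold change -2.35). Leaving out toxin replicate 4 or non-toxic replicate 1 or 2 reduced the 15 lower genes to 11.

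Tweedle proteins, a second cuticle family, had 5 of 24 genes lower (20.8%, against 1.52% of all genes) and 0 higher. *TwdlO* read 1114, 3892, 2252, 167, 1575 and 1672 with the toxin and 4222 to 5261 without it (3.74-fold, adjusted p = 0.0335). Replicate 2 was thus close to the non-toxic pools and replicate 4 lowest, and the call was lost in 7 of the 11 fits without a single pool. *TwdlP* gave the same order, with 1169 in replicate 2 and 196 in replicate 4, against 1304 to 1992, and its call was lost without toxin replicate 4. *TwdlL* was high in non-toxic replicates 1 and 2 alone, at 296 and 835, with 35.5 to 55.4 in the other 3 and at most 48.3 with the toxin. The family's median log2 fold change of -0.92 rested on non-toxic replicate 2 and was -0.40 without it, with 3 genes lower (likewise 3 without toxin replicate 4). In this pool the 24 genes summed to 167403 array units, and the lowest non-toxic pool to 10527. Among 23 genes of tanning and pigment, 2 were higher and 1 lower (8.70% and 4.35%, against 2.31% and 1.52% of all genes). *yellow-d2* (10.1-fold, adjusted p = 2.91e-04) and *yellow-e* (2.56-fold) were higher. *y* (yellow), needed for black pigment, was lower (2.24-fold, a call lost without non-toxic replicate 2). *yellow-d2* read 57.0 in replicate 2 and 407 to 1345 in the other toxin pools, against 27.2 to 46.4.

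**Figure D3:**
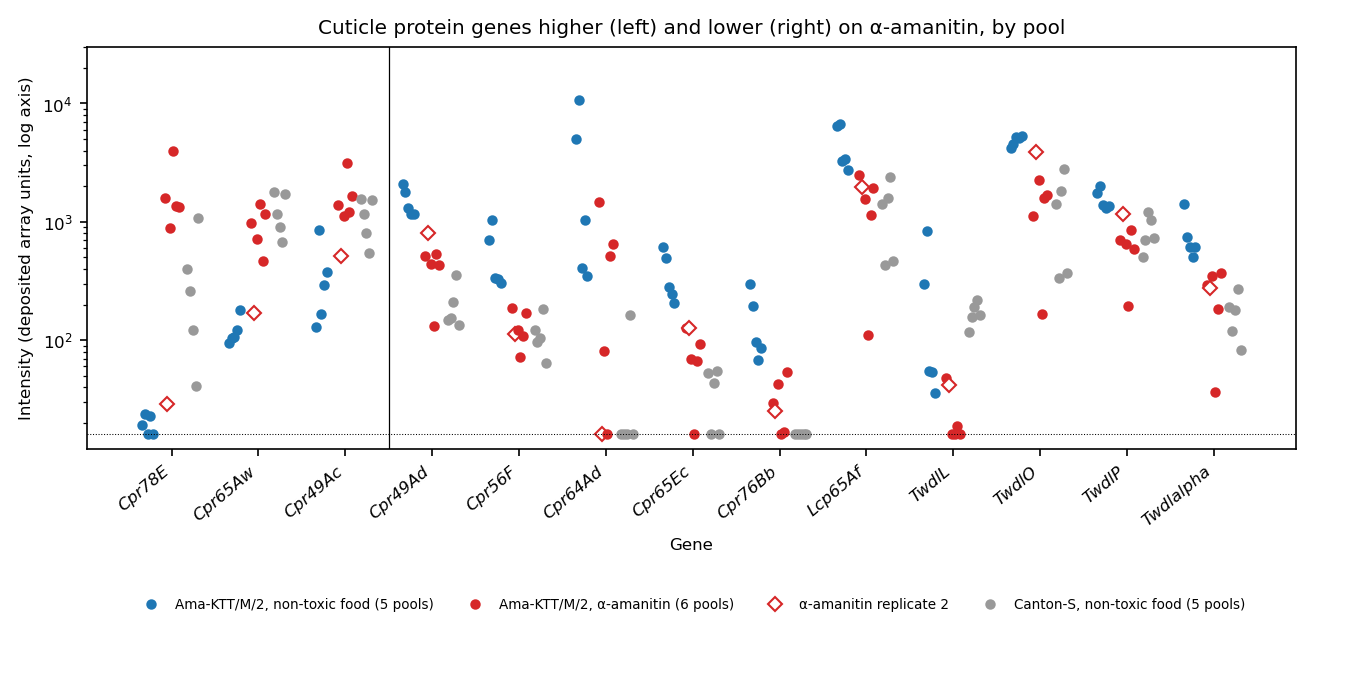
Intensities of 13 cuticle protein genes in every pool, on a log axis with values under 16 drawn at 16 (dotted line). Genes left of the line were called higher with α-amanitin and those right of it lower, and symbols are as in the plot of glue genes. Toxin replicate 2 (open diamond) is the lowest toxin pool for the 3 genes on the left, and toxin replicate 4 or non-toxic replicates 1 and 2 lie at the extremes of most genes on the right.

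For the gut genes called here, replicate 2 lay on the toxin side of every non-toxic pool, though by differing shares of the shift. Carbohydrases, enzymes that act on sugars of food or of glycoproteins, were higher in 10 of 19 genes (52.6%, against 2.31% of all genes). They were lower in 0, with a median log2 fold change of 1.07, or 1.05 without replicate 2. Groups did not overlap in 17 of the 19, a pattern found in 11.6% of all genes in that direction. *LManIII*, an α-mannosidase, an enzyme that trims mannose from glycoproteins, read 3615, 1552, 2909, 3278, 2571 and 2812 with the toxin and 81.9 to 219 without it (18.2-fold, adjusted p = 3.14e-09). Replicate 2 was again lowest, at 78.1% of the shift of the others. The 3 genes next to it on chromosome 2L were called too: *LManIV* (99.7 to 277 against under 16, at least 12.3-fold), *LManV* (1468 to 3145 against 215 to 499, 8.31-fold) and *LManVI* (1671 to 3414 against 412 to 1138, 3.92-fold). A further group of neighbours on 2R, the maltases *Mal-A5*, *Mal-A6* and *Mal-A8*, rose 3.49-fold, 2.74-fold and 6.41-fold. *tobi*, an α-glucosidase that insulin and glucagon-like signals regulate, was at 860 to 1227 against 281 to 366 (2.97-fold), and *Gal*, a β-galactosidase, at 827 to 1295 against 402 to 530 (2.33-fold). In *tobi* and *Gal* replicate 2 held 118% and 62.4% of the shift, and in *Mal-A5*, where it read 435 against 892 to 1612 in the other toxin pools, 31.6%. The median over the 10 was 68.8%, near the 65.2% of all called genes. *Mal-A1* completed the 10 (2.10-fold). Canton-S pools on plain food read 1297 to 2770 for *LManIII* and 827 to 1392 for *tobi*, above every non-toxic Ama-KTT/M/2 pool.

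Of 26 midgut proteases, 2 were called higher and 2 lower (7.69% each, against 2.31% and 1.52% of all genes), with a median of -0.23. By the adjusted p alone, 5 rose and 13 fell (21.0% and 19.6% of all genes did), and groups did not overlap in 3 higher and 12 lower genes (11.6% and 14.2% of all genes). *thetaTry*, a trypsin, was at 1782 to 2438 against 816 to 936 (2.46-fold, adjusted p = 1.61e-08), and *Jon99Ci*, a Jonah protease, at 3801 to 5319 against 1571 to 2058 (2.42-fold). Its relative *Jon66Ci* went down, from 8632 to 9218 without the toxin to 1853 to 3825 with it (3.18-fold lower, adjusted p = 2.02e-07), as did *Jon99Fi*, from 4576 to 6288 to 1806 to 2460 (2.55-fold lower). Of 6 lipases, 2 were higher (33.3%, against 2.31% of all genes). *mag* (magro), a secreted lipase of the gut, was at 4369 to 6630 against 1932 to 3206 (2.27-fold). The other was *Lip3* (2.02-fold), whose call was lost in 5 of the fits without a single pool. *LysX*, the 1 call among 3 lysozymes measured (33.3%, against 2.31% of all genes), rose 3.23-fold. By the adjusted p alone 2 of the 3 lysozymes rose and 1 fell (21.0% and 19.6% of all genes did). Their summed intensity was 3909 to 8090 with the toxin and 7514 to 9750 without it. Alkaline phosphatases diverged, with *Alp1* at 255 to 1064 against 81.5 to 128 (4.78-fold higher) and *Alp8* at 464 to 859 against 2125 to 2780 (3.91-fold lower). The 31 subunits of the acid-secreting vacuolar ATPase and 9 markers of the Malpighian tubule, the fly's kidney, had no call.

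Genes for chitin-binding proteins had tightly grouped pools. In the list of chitin genes, 5 of 39 were lower (12.8%, against 1.52% of all genes) and 0 higher. *Muc96D*, a mucin with chitin-binding domains, read 969, 1024, 828, 927, 931 and 848 with the toxin, and 5832, 5834, 5831, 5193 and 4589 without it (5.83-fold lower, adjusted p = 1.66e-12). Its second probe set gave 441 to 603 against 2998 to 3863 (6.91-fold lower). *Peritrophin-15a* and *Peritrophin-15b*, named for the peritrophic matrix, were at 3731 to 4516 against 8772 to 10103 and at 1409 to 1655 against 4053 to 4363 (2.23-fold and 2.73-fold lower). *obst-I*, of the obstructor family, was at 266 to 316 against 1289 to 1683 (4.77-fold lower), and *Cda9*, a chitin deacetylase, at 182 to 262 against 667 to 879 (3.39-fold lower). In all 5 genes replicate 2 held 82.4% to 94.6% of the shift, so no pool stood apart. Canton-S pools had *Muc96D* at 4642 to 5952, *Cda9* at 790 to 990, *Peritrophin-15a* at 8853 to 10382 and *Peritrophin-15b* at 3792 to 5235. All of these were above every toxin pool and near the level of non-toxic Ama-KTT/M/2. Only *obst-I*, at 414 to 591, was nearer the toxin group.

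A set of genes without a name beyond their annotation number, picked after their values were seen, had the same tight and separate groups. *CG34282* was at 1777 to 2188 with the toxin and 9172 to 10149 without it (4.96-fold lower, adjusted p = 5.71e-13), and *CG10725* at 1124 to 1432 against 7157 to 8811 (6.09-fold lower). *CG5084*, *CG11470*, *CG10154*, *CG17826*, *CG7567*, *CG14300* and *CG43896* were 4.60-fold to 5.95-fold lower, each without overlap. Some unnamed genes were higher in the same even way. *CG31089* read 332 to 605 with the toxin and at most 21.0 without it (at least 26.1-fold), and in Canton-S it reached at most 23.5. *CG6271* was at 1717 to 2350 against 97.8 to 170 (13.5-fold), *CG6283* at 4074 to 5774 against 514 to 760 (7.53-fold) and *CG34166* at 10076 to 11939 against 2010 to 2659 (4.64-fold). Other genes followed the glue pattern instead. *CG15404* and *CG31698* were at 1299 to 4680 in 5 toxin pools and under 16 in replicate 2 and all non-toxic pools. *CG17105* lay between these courses, with 1110 in replicate 2, 5197 to 9959 in the other toxin pools and 16.2 to 150 without the toxin (116-fold, adjusted p = 3.97e-07).

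**Figure D4:**
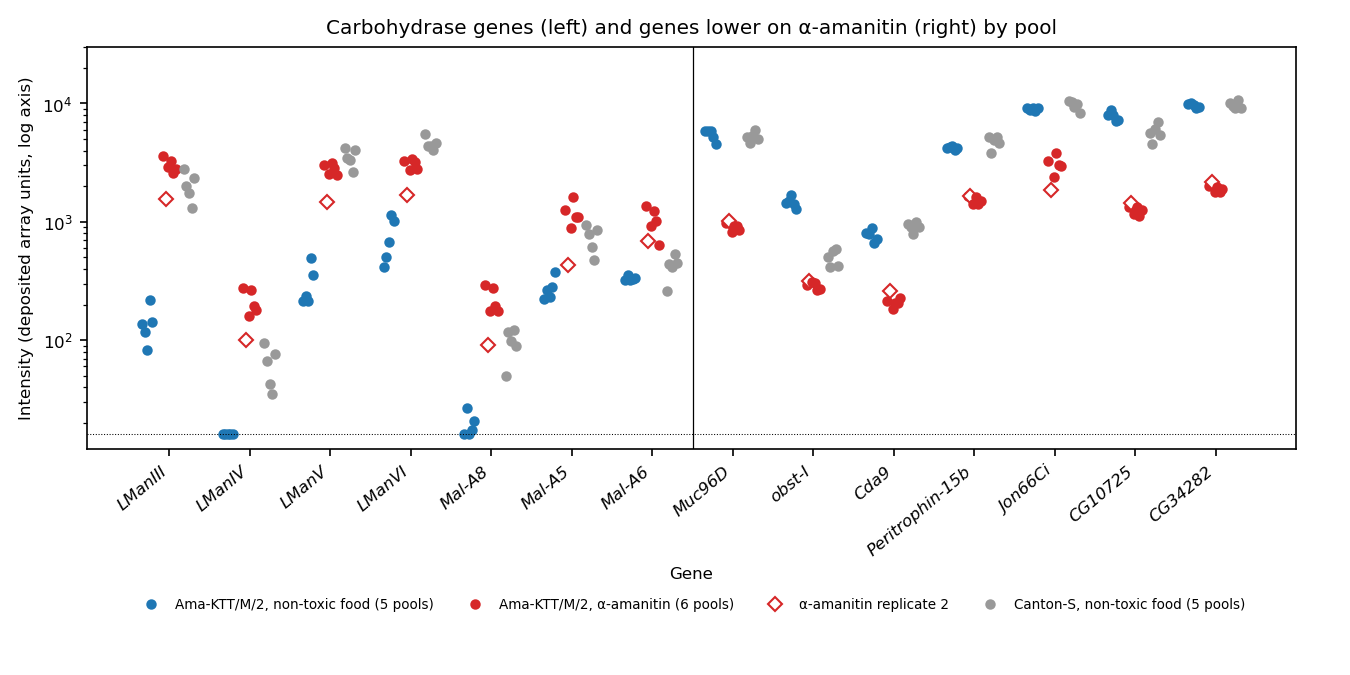
Intensities of 7 carbohydrase genes (left of the line) and 7 genes that were lower with α-amanitin (right) in every pool, on a log axis with values under 16 drawn at 16 (dotted line). Symbols are as in the plot of glue genes. Toxin replicate 2 (open diamond) is the lowest or near the lowest toxin pool among the carbohydrases but above every non-toxic pool, and within or close to the other toxin pools on the right.

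Lists of immune and blood cell genes were short and gave few calls. Of 14 antimicrobial peptide genes, 2 were higher (14.3%, against 2.31% of all genes) and 1 lower (7.14%, against 1.52%). *Listericin* was higher (202 to 338 against 29.4 to 81.6, 4.82-fold, adjusted p = 1.225e-06), as was *AttD*, an attacin (at least 3.33-fold). *Drsl2*, of the drosomycin family, was under 16 with the toxin and at 44.7 to 77.6 without it (at least 3.83-fold lower). In Canton-S *Drsl2* was at 2136 to 2986, far above both groups. *PGRP-SB1*, which recognises or cleaves bacterial peptidoglycan, was at 353 to 902 against 113 to 166 (3.48-fold). It was the 1 call among 7 peptidoglycan recognition proteins (14.3%, against 2.31% of all genes). *crq* (croquemort), a scavenger receptor of blood cells, was at 726 to 997 against 275 to 432 (2.29-fold). It was the 1 call among 11 haemocyte markers (9.09%, against 2.31% of all genes). Of these markers, 7 passed the test upwards without the fold limit (21.0% of all genes did).

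Among markers of other tissues, calls were mainly in the testis. None of 21 contractile muscle genes passed 2-fold, but 12 were higher without the fold limit (21.0% of all genes were), 10 without overlap (11.6% of all genes), with a median of 0.27, and none of 13 neuron markers and 7 germline markers was called. *toy* (twin of eyeless), an eye-specification gene, was the single call among 17 genes of disc patterning, at 233 to 378 against 74.9 to 95.8 (3.04-fold, adjusted p = 1.74e-08). The log2 fold changes of its 3 probe sets ranged from 0.13 to 1.60. Genes of the testis were higher in 8 of 27 (29.6%, against 2.31% of all genes), with a median of 0.63. Without replicate 2 they were higher in 10 of 27 (2.69% of all genes), with a median of 0.72. *betaTub85D*, the testis-specific β-tubulin, read 529, 155, 145, 288, 262 and 199 against 37.7 to 120 (3.01-fold, adjusted p = 0.00211), and *Mst77F*, a sperm chromatin protein gene, 1170, 292, 330, 640, 562 and 453 against 126 to 267 (2.65-fold). Toxin replicate 1 was the highest pool in both, and in the summed list, which ranged from 1953 to 5940 with the toxin and from 958 to 1953 without it. Leaving out toxin replicate 1 or non-toxic replicate 3 lowered the count from 8 to 5. Since larval testes occur only in males and sex was not recorded, the part of the sex ratio of the pools was not tested.

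Among genes of transcription and protein synthesis, calls were made in the nucleolar list alone. Of 6 RNA polymerase II subunits named on the array, 5 passed the test downwards without the fold limit (19.6% of all genes did). None passed with it (median log2 fold change -0.22). Against the non-toxic Ama-KTT/M/2 mean, the list median was -0.39 to -0.05 in toxin pools. In Canton-S pools on plain food it was lower, at -0.70 to -0.56. *Polr2H*, a subunit shared by all 3 polymerases, was at 372 to 491 with the toxin and 589 to 705 without it (1.46-fold lower, adjusted p = 6.86e-05). *Polr2E* gave 483 to 600 against 677 to 790 (1.32-fold lower), both without overlap. *Polr2G*, *Polr2K* and *Polr2L* were each 1.16-fold lower with overlapping pools, and *Polr2J* was at 423 to 473 against 430 to 522 (adjusted p = 0.347). Of 52 general transcription factors and Mediator subunits, 0 were called, and 13 were higher and 4 lower without the fold limit (21.0% and 19.6% of all genes were). Their median was 0.08. Nucleolar genes for making ribosomes fell furthest in this group. 6 of 22 were called lower (27.3%, against 1.52% of all genes), and 21 of 22 passed without the fold limit (19.6% of all genes did). *Fib* (fibrillarin), which methylates ribosomal RNA, was at 613 to 904 against 1407 to 2261 (2.18-fold lower, adjusted p = 3.87e-05), with replicate 4 lowest. The list's count was 11 without replicate 2, 3 without toxin replicate 4 or non-toxic replicate 1, and 10 without non-toxic replicate 4. Canton-S pools on plain food were at 479 to 853 for *Fib*, as low as the toxin pools. Mitochondrial ribosomal protein genes had 0 of 71 calls, or 1 without replicate 2. Without the fold limit 70 of the 71 were lower (19.6% of all genes were), 60 of them without overlap of groups (14.2% of all genes in that direction). The median was -0.58. Against the non-toxic Ama-KTT/M/2 mean, list medians were -0.92 to -0.26 in toxin pools and -1.14 to -0.74 in Canton-S pools on plain food. The 40 cytosolic ribosomal protein genes, 45 translation factors and 72 genes of the respiratory chain had no call (medians -0.11, -0.10 and -0.15).

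Genes of protein turnover had no call. In the proteasome 21 of 26 genes were higher without the fold limit (21.0% of all genes were), 16 of them without overlap (11.6% of all genes), by a median of 0.23. In autophagy 7 of 20 were higher without the fold limit, against the same 21.0% of all genes. *Atg8a*, a ubiquitin-like protein of the autophagosome, was at 4149 to 5535 against 2672 to 3009 (1.68-fold, adjusted p = 3.90e-05). No apoptosis gene of 10 was called. *Damm*, a caspase, had the largest change of the 10, at 608 to 1201 against 397 to 546 (1.61-fold), with replicate 2 highest. Of 12 heat shock and chaperone genes, *Hsp27* was higher at 710 to 1387 in the toxin pools other than replicate 2, which at 406 lay within the non-toxic 264 to 478 (2.21-fold). Its call was lost without toxin replicate 4. Metal-binding and antioxidant genes had 4 of 16 higher (25.0%, against 2.31% of all genes). One of them was *TrxT*, a testis thioredoxin, at 433, 113, 111, 230, 231 and 178 against 49.1 to 140 (2.00-fold, adjusted p = 0.0458), with replicate 1 highest as for the testis genes and a call lost in 7 of the 11 fits without a single pool. *MtnB* and *MtnC*, metallothioneins, were 2.25-fold and 2.81-fold higher, with replicate 2 at 124% and 155% of the shift of the other pools. *Cat* (catalase) was at 5647 to 6459 against 2773 to 2978 (2.11-fold, adjusted p = 8.96e-09). Among genes of sugar use, *sug* (sugarbabe), a sugar-responsive transcription factor, was at 88.2 to 146 against 367 to 517 (3.45-fold lower). *Hex-C*, a hexokinase and the only call among 12 glycolysis genes, was at 90.0 to 268 against 379 to 536 (2.22-fold lower, lost without toxin replicate 4). The transporter gene *Mdr50*, added after its values were seen, was at 304 to 353 against 821 to 1257 (3.13-fold lower).

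A few further genes among the largest changes belonged to none of these programmes. *Prat2*, which encodes an enzyme of the first step of purine synthesis, read 381, 148, 354, 610, 313 and 428 with the toxin and at most 54.3 without it (8.24-fold, adjusted p = 5.698e-06). Replicate 2 was again the lowest toxin pool, at 58.3% of the shift of the others. Among 47 odorant-binding proteins, 2 were higher and 3 lower (4.26% and 6.38%, against 2.31% and 1.52% of all genes). *Obp99a* was at 722 to 902 against 355 to 373 (2.18-fold higher), with pools of each group close together. *Obp83cd* read 532 in replicate 2, within the non-toxic range of 484 to 770, and 44.0 to 250 in the other toxin pools (2.78-fold lower, adjusted p = 0.00879).

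**Figure D5:**
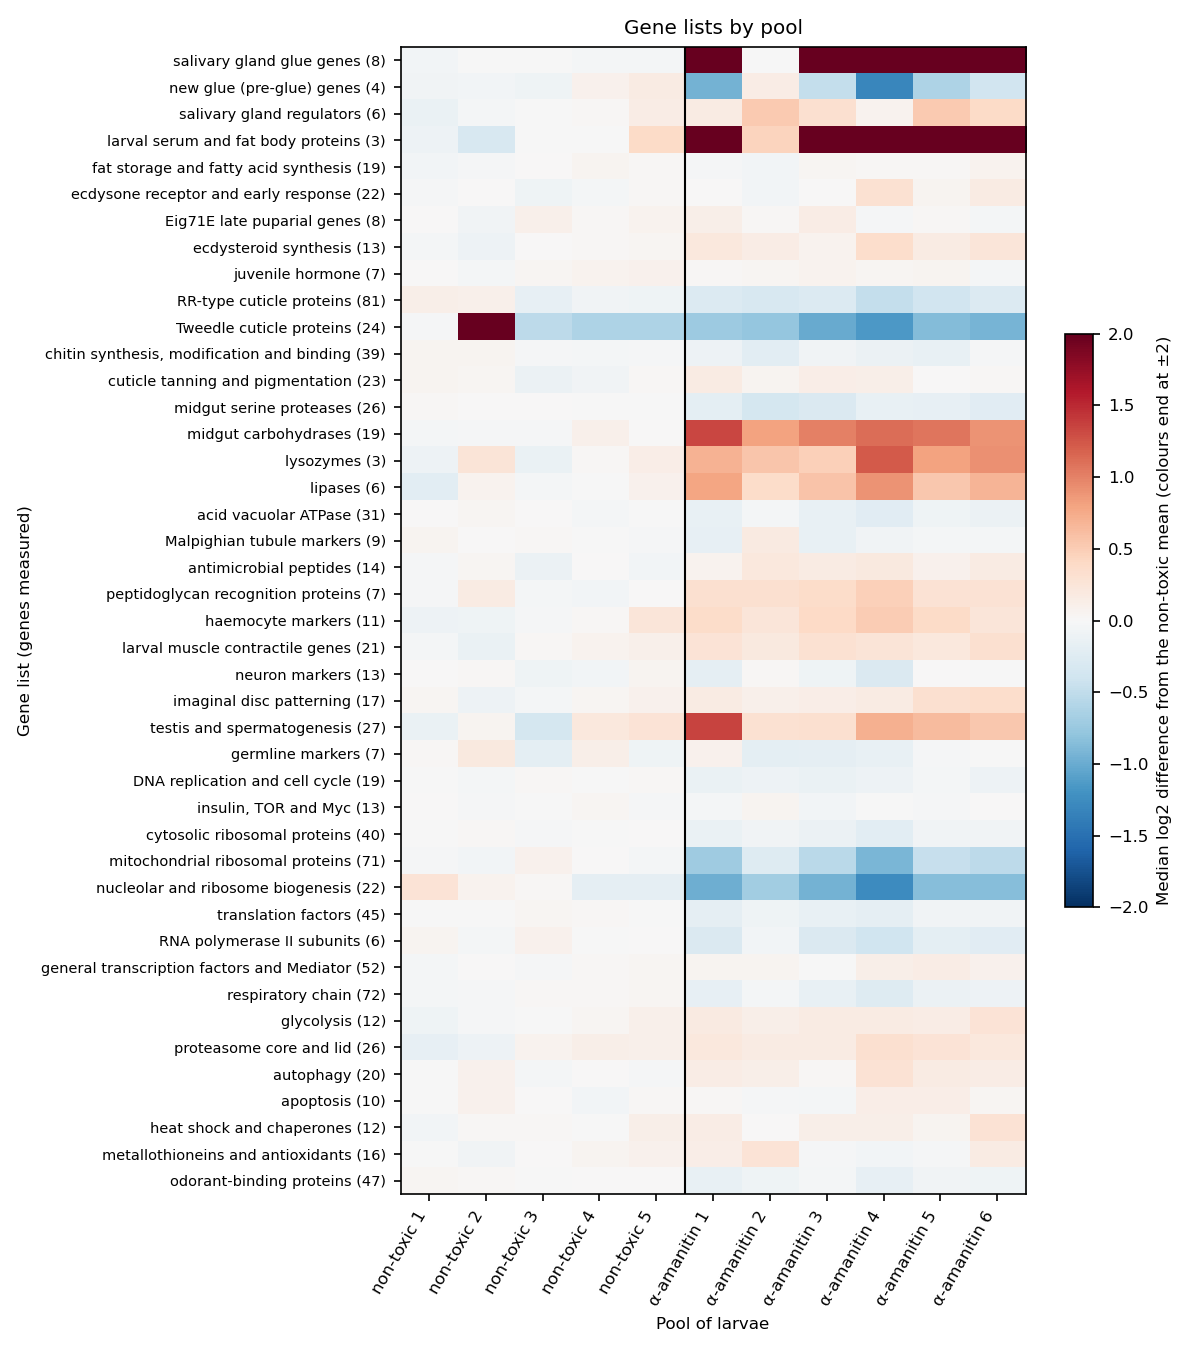
Median log2 difference of each gene list from its non-toxic mean (colour, ending at ±2) in each of the 5 non-toxic and 6 α-amanitin pools of Ama-KTT/M/2. Rows are the 43 gene lists with the number of genes measured, and columns are pools. Replicate 2 is pale for glue and fat body protein genes where the other 5 toxin pools are dark red, and coloured like them for carbohydrases, and non-toxic replicate 2 stands out for Tweedle proteins.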

How the data were processed

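RNA from pools of 10 whole larvae was hybridised to 1-colour Affymetrix arrays, 1 pool per array. The deposited values are probe set intensities on a linear scale, which the authors summarised from the scans with PLIER, with quantile normalization and mismatch correction. The submitters' processing notes name Affymetrix Expression Console 1.2. These steps force all arrays to 1 distribution, so a change of total mRNA per larva cannot be seen. Probe sets of gene families may bind transcripts of relatives, which was not tested. The number of arrays limits the precision.

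Intensities were offset by 16 and log2 transformed. All 16 arrays in 3 groups were fitted with limma 3.58.1 in R 4.3.3 (lmFit, eBayes) for the contrast of toxin against non-toxic Ama-KTT/M/2, with the Benjamini-Hochberg adjustment across all 18769 non-control probe sets. Calls needed an adjusted p under 0.05 as well as a change of at least 2-fold. Adjusted p-values in the text are from this fit. The offset pulls fold changes of dim probe sets towards 1. Where a group mean was under 16, the fold is a bound, the brighter mean over 16. Of the probe sets, 13647 had 1 gene symbol, 402 several and 4720 none, and genes were represented by their brightest probe set. Among the probe sets called, 479 had 1 symbol, 18 several and 55 none.

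The 43 gene lists and the genes followed were chosen with earlier results of these data known, and lists are described by counts and medians only. Named genes were the 15 largest changes in each direction without overlap of groups, outside the numbered genes and the Cyp, Gst and Ugt families. Up to 4 called members of each list were added, or the 2 brightest where fewer than 2 were called, with all glue, new glue, fat body protein and RNA polymerase II genes. Other genes, among them the CG-numbered ones, *LManVI*, *Mal-A1*, *Mal-A5*, *Mal-A6*, *tobi*, *Gal*, *Mdr50*, *Peritrophin-15a* and *Obp99a*, were chosen after their values were seen. The fits were tested on simulated data. Alternatives were other offsets, a filter on dim probe sets, a second quantile normalization, the 11 Ama-KTT/M/2 arrays alone, a replicate block, trended robust priors, an exact Wilcoxon test, and leaving out pools. No array pair of 120 was identical.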

Additional observations from a re-analysis of the deposited data

Results flagged for a closer look

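In a test for a single pool far from the rest of its group (Dixon's ratio, by group, over list means and the genes named above), 35 of 280 groups stood out, where chance alone gives about 5%. Of these, 21 were α-amanitin replicate 2. Genes share the pools, so these are not independent. The lists and genes were also chosen with earlier results known, and some genes after their values were seen. The count for replicate 2 therefore cannot be weighed against that 5%.

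For glue genes replicate 2 was far below the others. Its intensities, all under the limit of 16, were 0.758 for *Sgs1*, 0.0277 for *Sgs3*, 3.12 for *Sgs5*, 0.0117 for *Sgs5bis*, 0.0399 for *Sgs7*, 2.77 for *Sgs8* and 3.69 for *Eig71Ee*. The list's mean log2 value was 4.12 there and 11.41 to 12.84 in the other toxin pools. *CG15404* (0.00206) and *CG31698* (2.84) behaved likewise. Replicate 2 was also low for *Fbp2* (20.9), *Cpr78E* (28.8), *FASN3* (262), *CG17105* (1110), *LManV* (1468), *LManVI* (1671), *Lsp2* (2774) and *Obp99b* (2782). The fat body protein list had a mean log2 value of 6.88 there, against 11.18 to 13.28. It was high for *CG43896* (718, against 483 to 538 in the other toxin pools) and for the mean log2 value of antimicrobial peptides (6.85, against 6.24 to 6.42).

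α-Amanitin replicate 4 was low for *Cpr65Ec* (4.89, under the limit), *Hex-C* (90.0) and *Lcp65Af* (110). The *Eig71E* list had a mean log2 value of 4.80 in replicate 5, against 4.93 to 5.01, and glycolysis one of 11.77 in replicate 6, against 11.57 to 11.64.

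Among non-toxic pools, replicate 5 was high for *Lsp2* (1202), *CG17105* (150), *Listericin* (81.6) and the fat body protein list (6.47, against 4.29 to 4.85). Replicate 1 was low for *FASN1* (13342, against 13626 to 13719) and *vri* (34.9) and high for *thetaTry* (936). Replicate 2 was high for antimicrobial peptides (6.79, against 5.92 to 6.02), and replicate 4 low for *tobi* (281).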

How the results depend on the processing

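The calls depended most on the offset before log2, which sets the fold of dim probe sets: 738 probe sets were higher with an offset of 1 and 195 with 64, and 138 lower with 64. With an offset of 1 the list medians were 9.38 for glue, 0.38 for ecdysteroid synthesis, 0.23 for antimicrobial peptides, 0.36 for discs and 1.03 for testis. With 64 they were 0.12 for ecdysteroid synthesis, 0.078 for antimicrobial peptides, -0.085 for cell cycle and -0.04 for odorant-binding proteins. With dim probe sets removed they were 0.35 for ecdysteroid synthesis, 0.18 for juvenile hormone, -0.50 for Rebers-Riddiford cuticle proteins, 1.22 for carbohydrases, 0.85 for lipases, 0.30 for antimicrobial peptides, 0.40 for discs, 1.00 for testis and -0.24 for odorant-binding proteins, and tanning turned from 0.09 to -0.011. After a second quantile normalization they were 0.079 for fat storage, -0.066 for juvenile hormone, -0.064 for the vacuolar ATPase, -0.040 for cytosolic ribosomal proteins, -0.066 for the respiratory chain, 0.245 for glycolysis, 0.23 for heat shock and -0.16 for odorant-binding proteins. Leaving out 1 pool at a time gave 292 to 403 higher and 163 to 262 lower probe sets, and medians of -0.059 to 0.040 for juvenile hormone, -0.30 to -0.16 for proteases, 0.12 to 0.24 for antimicrobial peptides and -0.055 to 0.0066 for insulin signalling. Leaving out α-amanitin replicate 2 and non-toxic replicate 5 together gave 440 and 287. Of 167 probe sets followed, 0 changed sign under any of these settings, and the exact Wilcoxon test lost most calls, 15. Samples with the same replicate number were not paired by design, and their deviations correlated at -0.03 to 0.27 over 5 pairs. With the replicate number as a block, 335 probe sets were higher and 210 lower, and 5 of the 167 lost their call. The cause of these shifts was not tested.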
